A study of Mus musculus with 24 samples.

Results

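Genes of fatty acid oxidation and of the PPAR pathway were followed in sorted mouse mammary epithelium from animals with and without Id4. The set holds 33 genes, chosen by name with earlier results of these data known. They are 6 regulators, 4 genes of the carnitine shuttle and 15 of mitochondrial oxidation. The rest are 3 genes of peroxisomes and 5 of lipid uptake and storage or known as PPAR targets. All 33 were found by symbol among the 24007 genes of the deposited table. The libraries came from female FVB/N mice, 10 to 12 weeks old and in estrus, either wild type (WT) or knockout for Id4 (KO), with glands of 4 to 8 mice pooled per replicate. The knockout is described only by reference to the animals' origin, and the sources used here do not say which part of Id4 it lacks or whether it is limited to a cell type. Flow sorting of live, lineage-negative cells by CD24, CD29 and CD61 separated basal (CD29 high, CD61 positive), luminal progenitor (LP; CD29 low, CD61 positive) and mature luminal (ML; CD29 low, CD61 negative) cells. Each of the 6 groups had 4 libraries, which the labels call biological replicates.

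Long-chain fatty acids are activated to acyl-CoA, handed to carnitine by CPT1 at the outer mitochondrial membrane, carried across the inner membrane by SLC25A20 and returned to CoA by CPT2. Beta-oxidation then repeats dehydrogenation, hydration, a further dehydrogenation and thiolysis, and passes electrons to the respiratory chain through the electron transfer flavoprotein. PPARs are nuclear receptors that bind DNA with a retinoid X receptor, are activated by fatty acids and their derivatives, and switch on many of these genes as well as genes of lipid storage. In the mammary gland, PPAR gamma is best known from the fat pad, and the luminal epithelium makes lipid droplets for milk.

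Library totals ran from 3098425 to 7246443 rounded counts, and 3 counts corresponded to 0.377 to 0.972 counts per 1000000 scaled counts of a library (CPM). Markers matched the sort labels: summed basal markers stood at 7808 to 14388 CPM in the 8 basal libraries, summed LP markers at 4901 to 16221 CPM in LP and summed ML markers at 5248 to 10025 CPM in ML. WT basal replicate 2 stood apart with 4516 CPM of LP markers, against 258 to 427 CPM in the other WT basal libraries, and KO basal replicate 3 with 208 CPM of endothelial markers, against 42.7 to 49.6 CPM in the other KO basal libraries. Id4 stood at 86.1, 13.1, 29.8 and 39.5 CPM in WT basal replicates 1 to 4 and at 10.3, 1.13, 11.02 and 0.939 CPM in KO basal replicates 1 to 4. All 4 KO basal libraries lay below all 4 WT basal libraries. Both luminal populations held at most 1.41 CPM of Id4. In sorted bulk RNA, fewer cells of a type and less RNA per cell cannot be told apart.

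Of the 33 genes, 22 had a count in every library and 18 had a mean of at least 10 CPM in every group. Promoter stretches are shown for 4 genes with differences between WT populations: Plin2 and Ucp2, which were higher in LP than in ML, and Cpt1a and Acadvl, which were lower in basal cells than in ML. The stretches are RefSeq sequence on GRCm38.p6, written along the strand of the gene from 5′ to 3′, and overlap no annotated exon. The Cpt1a stretch ends at the exon that begins the longest annotated transcript, and lies within the first intron of another transcript that starts upstream of it. They lie at chr4:86670061-86670309 on the minus strand (Plin2), chr7:100493108-100493336 on the plus strand (Ucp2), chr19:3323051-3323284 on the plus strand (Cpt1a) and chr11:70015429-70015678 on the minus strand (Acadvl). Capitals mark 2 motifs. The nuclear receptor core motif AGGTCA, in either direction, is marked in Plin2, Cpt1a and Acadvl. The E-box CAGCTG, which reads the same on both strands, is marked in Plin2, Ucp2 and Cpt1a.
Plin2: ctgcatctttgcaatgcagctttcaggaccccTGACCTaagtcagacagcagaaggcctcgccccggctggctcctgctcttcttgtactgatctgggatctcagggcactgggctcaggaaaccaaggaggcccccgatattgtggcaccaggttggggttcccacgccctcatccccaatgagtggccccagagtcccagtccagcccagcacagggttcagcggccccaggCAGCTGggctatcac
Ucp2: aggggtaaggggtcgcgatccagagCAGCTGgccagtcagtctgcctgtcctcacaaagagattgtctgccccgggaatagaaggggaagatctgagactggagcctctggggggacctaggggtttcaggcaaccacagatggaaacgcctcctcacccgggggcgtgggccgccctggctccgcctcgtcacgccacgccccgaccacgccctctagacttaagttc
Cpt1a: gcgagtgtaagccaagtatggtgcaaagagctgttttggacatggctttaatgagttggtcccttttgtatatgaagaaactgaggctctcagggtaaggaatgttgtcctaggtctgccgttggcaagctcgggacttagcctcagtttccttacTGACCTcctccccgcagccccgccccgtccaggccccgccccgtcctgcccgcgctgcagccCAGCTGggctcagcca
Acadvl: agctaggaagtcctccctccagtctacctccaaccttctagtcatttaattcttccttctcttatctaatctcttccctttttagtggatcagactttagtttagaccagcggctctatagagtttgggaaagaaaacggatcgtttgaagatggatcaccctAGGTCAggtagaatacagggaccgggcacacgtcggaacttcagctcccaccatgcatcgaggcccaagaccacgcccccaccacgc

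RefSeq promoter windows of 300 bases, from 250 before to 50 after a start site, were held for 28 of the 33 genes (31 windows). Acaa2, Angptl4, Crat, Decr1 and Ppargc1b had no entry. The core motif AGGTCA was found on either strand in 9 of the 31 windows (29.0%), beside 16.3% of all 32851 mouse windows of that length. The direct repeat bound by PPAR with RXR, searched as 2 copies of AGGTCA with 1 base between them, was in 0 of 31 windows and 0.0396% of all. A looser form, with any base at the fourth place of each copy, was in 0 of 31 and 0.381%. The element TCAAGGTCA, bound by estrogen-related receptors, was in 0 of 31 windows and 0.423% of all. AGGTCA lies within the exact direct repeat and within TCAAGGTCA, so these searches overlap. CAGCTG was in 4 of 31 windows (12.9%, beside 16.3% of all) and another E-box, CACCTG, in 6 of 31 (19.4%, beside 20.2%). E-boxes are the sites of E proteins, the partners that ID proteins hold off DNA. Each match is only a string of letters in a window, and binding was not measured.

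Among the regulators, Ppard was the PPAR gene that was present throughout, while Ppara and Pparg were near the limit of detection. Per kilobase of transcript, using the deposited gene length, Ppard stood at 19.4 CPM per kb in WT LP, 19.0 in WT ML and 15.4 in WT basal cells. On the same scale and in the same order Ppara stood at 0.145, 0.0549 and 0.528 CPM per kb, and Pparg at 0.760, 0.573 and 0.137.

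Ppara, the receptor best known from liver, stood at 2.75, 0, 0 and 4.46 CPM in WT basal replicates 1 to 4. It was at most 0.882 CPM in all 8 WT luminal libraries, and at 0 in 3 of 4 KO LP and all 4 KO ML libraries. Only WT basal replicates 1 and 4 were above the highest 3-count level, and the groups overlapped. Pparg, the receptor of adipocyte differentiation, stood at 2.64, 2.47, 0.240 and 0.158 CPM in WT LP and at 0.382, 0.852, 1.00 and 1.91 CPM in WT ML. In KO ML it stood at 0.678, 0.136, 11.2 and 2.15 CPM. KO ML replicate 3 was the highest of the 24 libraries for Pparg, and it also held the highest sum of adipocyte markers, 48.0 CPM, against 6.37 to 10.4 CPM in WT ML. The part of adipocyte RNA in the Pparg value was not tested. Both genes were too low to be tested in the WT fit. Pparg was tested between KO and WT in LP alone, with a log2 fold change of 0.49 (SE 1.03, edgeR adjusted p = 0.999).

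Ppard, the widely expressed receptor, stood at 31.1, 34.9, 26.9 and 38.0 CPM in WT LP and at 41.1, 32.7, 22.7 and 31.3 CPM in WT ML. WT basal replicates 1 to 4 held 17.5, 8.62, 46.0 and 31.4 CPM. All 3 populations overlapped, and no contrast between them passed, where a pass means an edgeR adjusted p under 0.05 over all genes tested. Rxra, the partner receptor, stood at 89.7 ± 20.1 CPM in WT basal cells (SD, n = 4), 69.3 ± 30.9 CPM in LP and 49.9 ± 11.4 CPM in ML. The 4 basal libraries of Rxra lay above all 4 ML libraries, with a log2 fold change of 0.86 (SE 0.32) that did not pass (edgeR adjusted p = 0.0612). The coactivator Ppargc1a, which drives mitochondrial biogenesis, stood at 10.2, 8.47, 7.45 and 4.89 CPM in WT LP, above every WT basal (0 to 2.60 CPM) and WT ML library (0.127 to 2.06 CPM). Its edgeR adjusted p was 0.0724 against basal cells and 0.0599 against ML. Its relative Ppargc1b was low, at 2.32 ± 2.02 CPM in WT LP and 2.80 ± 1.80 CPM in WT ML, with 30.4 CPM in WT basal replicate 2 alone.

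**Figure D1:**
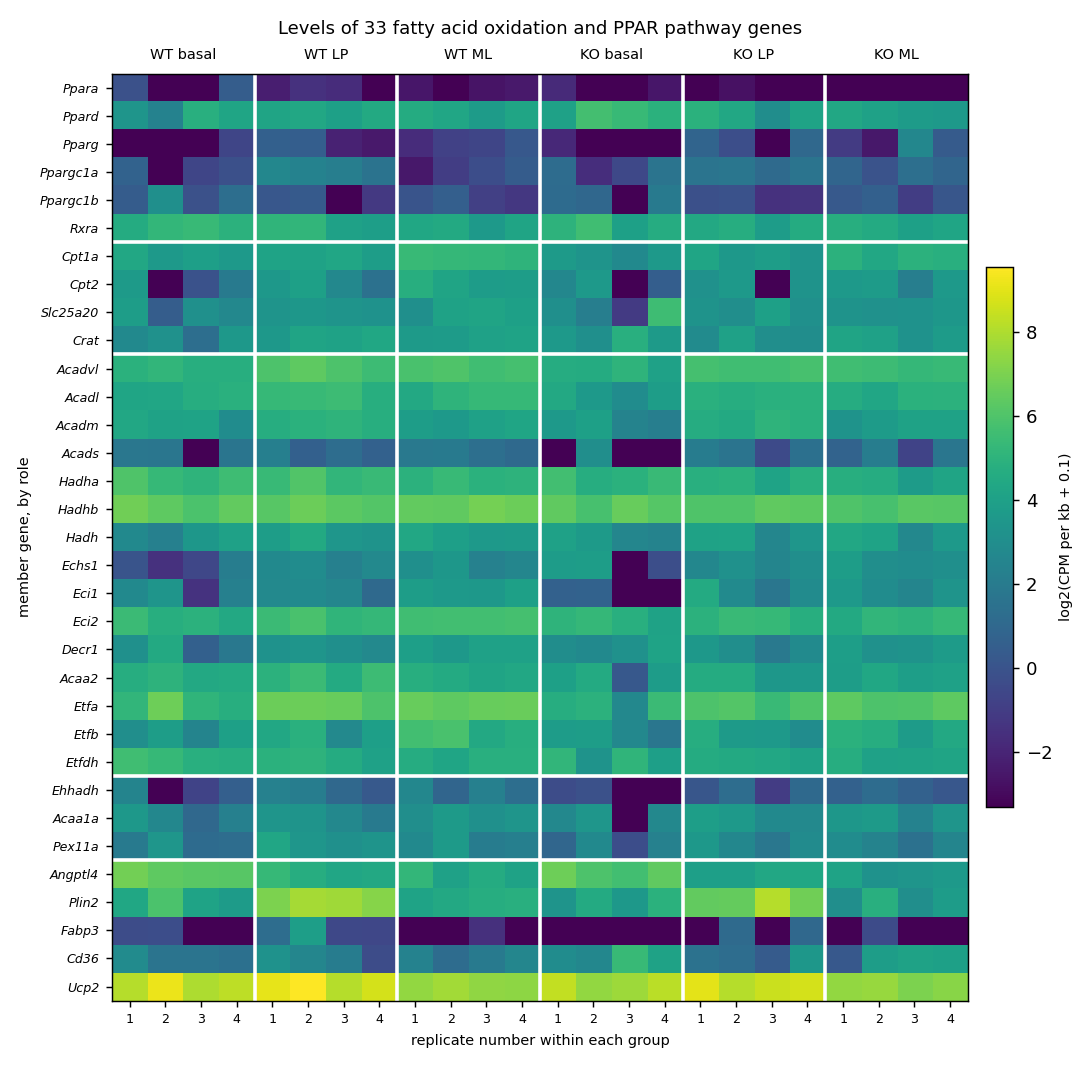
Levels of the 33 genes in the 24 libraries, as log2 of CPM per kilobase plus 0.1, with genes in rows by role (regulators, carnitine shuttle, mitochondrial oxidation, peroxisome, uptake and storage) and libraries in columns by group and replicate number. Ucp2 is the brightest row, Plin2 is bright in LP, and Ppara, Pparg and Fabp3 are near the bottom of the scale in most libraries.

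The WT populations were compared to find which steps of the pathway differ between cell types. Basal cells had less Acadvl than both luminal populations and more Angptl4. LP were set apart by Plin2, and ML by Cpt1a. Of 30 tested genes 1 was higher and 2 were lower in basal cells than in LP, beside 9.12% and 6.68% of all 12771 genes tested. Against ML 2 were higher and 4 lower in basal cells, beside 14% and 10.6% of all genes. Between LP and ML 2 were higher in LP and 1 lower, beside 6.62% and 4.89%. The members' counts were near or under these shares. The median log2 fold change of the tested genes was -0.45 for basal over LP and -0.52 for basal over ML, beside -0.03 and 0.01 over all genes, and 0.00 for LP over ML, beside -0.01.

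Plin2, which coats lipid droplets and is a PPAR target, lies at chr4:86648386-86670060. It stood at 220.2, 385, 350.3 and 249.9 CPM in WT LP replicates 1 to 4, at 33.9, 101, 29.8 and 22.6 CPM in WT basal cells and at 29.3, 37.2, 43.4 and 47.7 CPM in WT ML. Every LP library lay above every library of the other populations. The log2 fold change of basal over LP was -2.66 (SE 0.41, edgeR adjusted p = 2.85e-04) and that of LP over ML was 2.94 (SE 0.41, edgeR adjusted p = 2.29e-04). The highest basal value belonged to replicate 2, the library with LP markers. Without it Plin2 had a log2 fold change of -3.39 between basal cells and LP. The same split was seen in KO: KO LP libraries held 147, 153, 463 and 182 CPM of Plin2, while KO basal libraries held 16.9 to 50.5 CPM and KO ML libraries 13.9 to 47.4 CPM.

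Cpt1a, the rate-limiting enzyme of entry into mitochondrial oxidation, lies at chr19:3322334-3385733. It stood at 172, 162, 158 and 144 CPM in WT ML, at 76.2, 73.8, 83.7 and 62.0 CPM in WT LP and at 89.8, 50.6, 65.9 and 52.6 CPM in WT basal cells. All 4 ML libraries lay above the other 8, and basal cells and LP overlapped. Cpt1a had a log2 fold change of -1.28 for basal over ML (SE 0.22, edgeR adjusted p = 5.79e-04) and -1.10 for LP over ML (SE 0.22, edgeR adjusted p = 0.00387). The next steps of the shuttle had values in the same order without passing: Cpt2, which remakes acyl-CoA inside the mitochondrion, stood at 13.0 ± 4.26 CPM in WT ML, 6.51 ± 4.13 CPM in LP and 3.09 ± 4.17 CPM in basal cells. Slc25a20, the carnitine-acylcarnitine carrier, stood at 26.9 ± 7.80, 18.2 ± 1.19 and 13.8 ± 9.54 CPM, and overlapped between all populations. Crat, which moves acetyl groups onto carnitine, was lower in basal cells (9.44 ± 4.95 CPM) than in LP (20.9 ± 4.61 CPM) in its mean, with an edgeR adjusted p of 0.0986.

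Among the enzymes of the mitochondrial spiral, Acadvl, the dehydrogenase of very long chains, gave the steadiest difference. It lies at chr11:70010183-70015411. WT basal libraries held 37.9, 46.2, 35.2 and 34.5 CPM, WT LP libraries 80.0, 106, 81.0 and 58.1 CPM and WT ML libraries 73.7, 82.5, 62.1 and 70.9 CPM. No basal library reached a luminal one. The log2 fold change was -1.06 against LP (SE 0.24, edgeR adjusted p = 0.00653) and -0.89 against ML (SE 0.24, edgeR adjusted p = 0.0132). The dehydrogenases of long and medium chains, Acadl and Acadm, did not pass in any of the 3 contrasts. Acadl had means of 66.4 ± 13.9 CPM in WT LP, 57.9 ± 14.7 CPM in WT ML and 40.3 ± 7.88 CPM in WT basal cells. Acadm stood at 47.9 ± 5.05 CPM in LP, with all 4 libraries above those of basal cells (26.3 ± 9.62 CPM) and ML (25.5 ± 4.54 CPM), and edgeR adjusted p of 0.0900 and 0.0799. Acads, the short-chain enzyme, was low everywhere, at most 6.01 CPM.

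Etfb, the beta subunit of the electron transfer flavoprotein, stood at 42.9, 51.0, 18.9 and 23.1 CPM in WT ML and at 6.94, 12.5, 4.82 and 13.6 CPM in WT basal cells, with no overlap. The log2 fold change of basal over ML was -1.82 (SE 0.50, edgeR adjusted p = 0.0148). Without WT ML replicate 2 the adjusted p was 0.0552. In ML, replicates 1 and 2 were both above replicates 3 and 4. The alpha subunit Etfa stood at 50.1, 144, 48.2 and 37.2 CPM in WT basal cells, 140.1, 139, 131 and 87.6 CPM in LP and 133, 113, 132 and 134 CPM in ML. WT basal replicate 2 was alone among basal libraries in the luminal range of Etfa. Without that library Etfa passed, at a log2 fold change of -1.46 against LP (edgeR adjusted p = 2.17e-04) and -1.497 against ML (1.33e-04). Etfdh, which hands the electrons to ubiquinone, stood at 56.9 ± 9.40 CPM in WT ML, 59.0 ± 15.8 CPM in LP and 82.1 ± 25.0 CPM in basal cells, and did not pass.

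Echs1, the hydratase of short chains, stood at 1.45, 0.392, 0.903 and 6.61 CPM in WT basal cells and at 13.1, 17.2, 7.83 and 9.12 CPM in WT ML. The groups did not overlap, and the log2 fold change was -2.30 (SE 0.70, edgeR adjusted p = 0.0251). The call was lost without WT basal replicate 1 or 3 or WT ML replicate 1 or 2, with adjusted p between 0.0513 and 0.0711. Against LP, where Echs1 stood at 10.0 ± 1.80 CPM, the edgeR adjusted p was 0.0569. KO basal libraries held 21.4, 22.4, 0 and 1.17 CPM of Echs1, so replicates 1 and 2 of that group lay in or above the luminal range and replicates 3 and 4 did not.

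Hadha and Hadhb encode the alpha and beta subunits of the trifunctional protein, which carries out the last steps on long chains. Their RefSeq start sites lie head to head on chromosome 5, at 30154980 and 30155253, 273 bases apart. Hadha had means of 114 ± 15.8 CPM in WT ML, 157 ± 45.0 CPM in LP and 155 ± 44.4 CPM in basal cells. Hadhb had 146 ± 20.8, 119.6 ± 20.7 and 126 ± 29.2 CPM in the same order. Neither passed in a contrast of WT populations. Per kilobase Hadhb was among the most abundant enzymes of the set, at 97.7 CPM per kb in WT ML, beside 91.8 for Etfa, 55.8 for Acadvl, 51.1 for Eci2 and 33.5 for Hadha. Eci2, an isomerase for unsaturated chains, stood at 71.4 ± 3.65 CPM in WT ML, above all 4 WT basal libraries (42.9 ± 13.1 CPM), with an edgeR adjusted p of 0.0581. Its relative Eci1 stood at 14.8 ± 2.16 CPM in ML, above every LP (5.91 ± 2.52 CPM) and basal library (6.12 ± 4.62 CPM), without passing. Hadh, Decr1 and Acaa2, a dehydrogenase, a reductase and a thiolase of the spiral, did not pass in any WT contrast either.

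The peroxisomal genes were low. Ehhadh, a bifunctional enzyme, had means of 11.4 ± 6.12 CPM in WT ML, 9.28 ± 5.61 CPM in LP and 5.496 ± 7.43 CPM in basal cells. Acaa1a, a thiolase with a near-identical copy (Acaa1b) that can share its reads, had 11.01 ± 2.37, 8.34 ± 3.44 and 6.58 ± 4.34 CPM in the same order. Pex11a, which acts in peroxisome division, stood at 8.39, 24.5, 4.82 and 5.12 CPM in WT basal cells and at 43.1, 23.8, 19.5 and 22.3 CPM in LP. None of the 3 passed, and the high basal value of Pex11a was again that of replicate 2. Without that library Pex11a passed against LP, with a log2 fold change of -2.14 (edgeR adjusted p = 0.00456).

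Angptl4, a secreted inhibitor of lipoprotein lipase and a PPAR target, lies at chr17:33773750-33781830. It stood at 269.5, 198, 187 and 178 CPM in WT basal cells, 94.3, 63.4, 46.9 and 53.0 CPM in LP and 88.1, 39.4, 58.4 and 41.1 CPM in ML. Every basal library lay above every luminal one. Its fitted log2 fold change was 1.71 over LP (SE 0.30, edgeR adjusted p = 8.84e-04) and 1.90 over ML (SE 0.30, edgeR adjusted p = 2.42e-04). KO basal libraries, at 259, 151, 121 and 205 CPM, also lay above all KO luminal libraries, at 23.0 to 50.3 CPM.

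Ucp2, an inner membrane carrier, was the most abundant of the 33 genes per kilobase, at 493 CPM per kb in WT LP, 358 in WT basal cells and 183 in WT ML. It stood at 939.8, 1332, 494 and 737 CPM in WT LP, at 499.5, 1034, 449.9 and 555 CPM in WT basal cells and at 318, 386, 301 and 296 CPM in WT ML. All 4 ML libraries lay below the other 8. The log2 fold change of LP over ML was 1.43 (SE 0.31, edgeR adjusted p = 0.00615) and that of basal over ML was 0.99 (SE 0.31, edgeR adjusted p = 0.0278). The latter rested on single libraries: the adjusted p was 0.0853 without WT basal replicate 2, where the log2 fold change was 0.63, and 0.0640 to 0.0860 without WT ML replicate 1, 3 or 4. Cd36, a fatty acid transporter that is also abundant in adipocytes and capillaries, stood at 1.11 to 14.6 CPM in the 12 WT libraries and did not pass. Fabp3, a fatty acid binding protein, was above 2 CPM in WT LP replicate 2 alone, at 12.0 CPM, and was not tested.

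**Figure D2:**
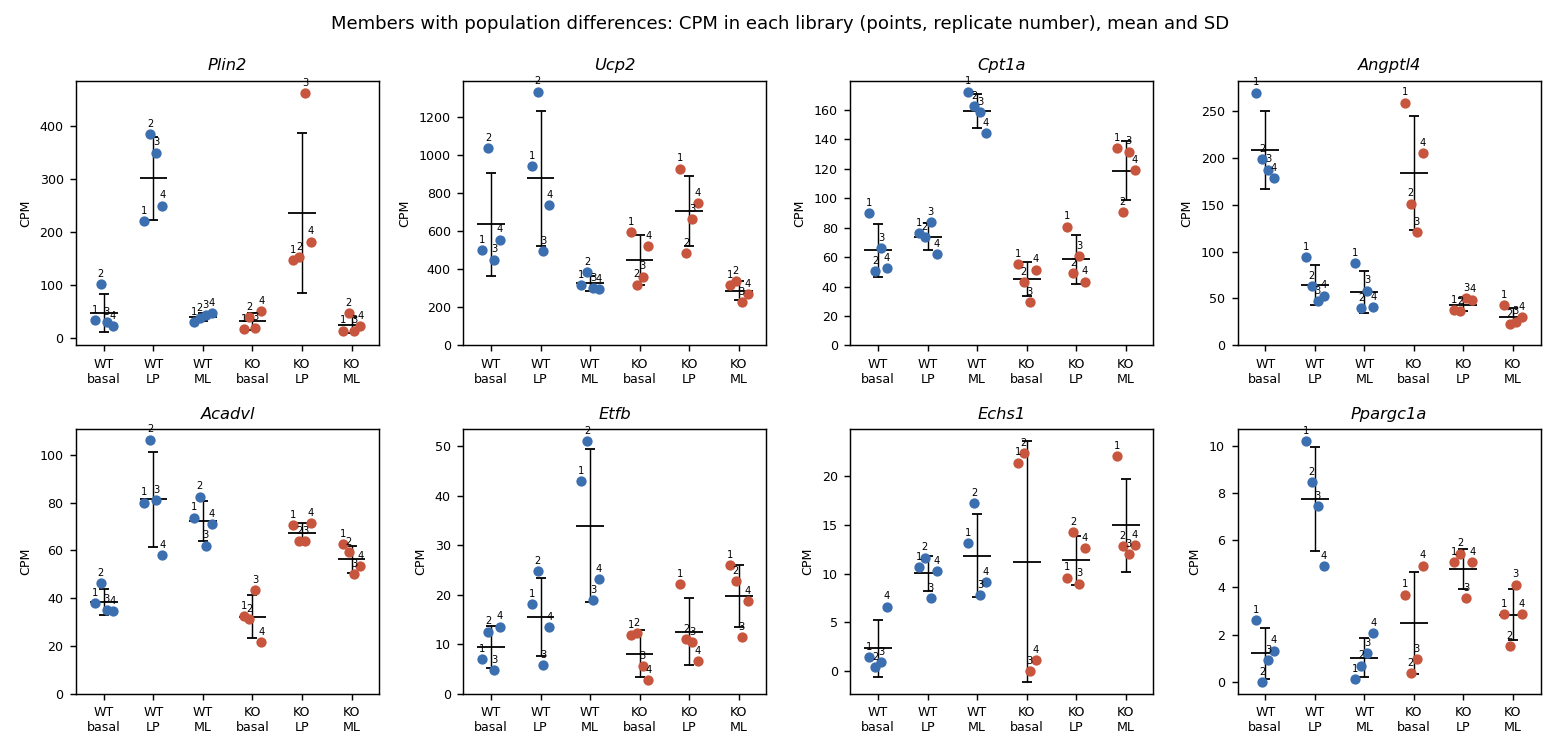
CPM of 8 genes in every library (points with their replicate number), with the group mean (line) and SD (bars), for WT in blue and KO in red. Plin2 is high in LP, Cpt1a in ML and Angptl4 in basal cells, in both genotypes, and the 4 WT basal points of Acadvl lie below all WT luminal points.

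Several basal calls changed when WT basal replicate 2 was left out. Without it 5 of the tested genes were lower in basal cells than in LP (Plin2, Acadvl, Pex11a, Etfa and Ucp2), where 2 had passed with it. Against ML 7 were lower (Acadvl, Cpt1a, Decr1, Echs1, Etfa, Etfb and Pex11a) and 1 higher, Angptl4. The WT contrasts came from the same fit and shared an estimate of the spread. LP over ML, which holds no basal library, then also had 4 genes of the set higher, beside 2 with every library. The part of the shared spread in these changes was not tested. Calls over all genes also varied when a library was left out. In either direction they numbered 1557 to 2808 for basal cells against LP, beside 2018 with every library. Against ML they numbered 2498 to 4035, beside 3140. WT basal replicate 2 stood highest among WT basal libraries for Etfa, Plin2, Ucp2, Decr1, Pex11a and Ppargc1b, and was lowest among them for Ppard, Slc25a20 and Echs1, among others. Besides its LP markers, it held 138.7 CPM of macrophage and other immune markers, against 9.59 to 16.0 CPM in the other WT basal libraries, and 26.2% of its counts were mitochondrial rRNA, against 15.3% to 17.5%. The part of each in these values was not tested, beyond leaving the library out.

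Other genes of the pathway, from lists that overlap none of the 33, were compared between WT populations in the same fit. The shares of all genes to set beside the counts are those given above: 9.12% higher and 6.68% lower for basal over LP, 14% and 10.6% for basal over ML, and 6.62% and 4.89% for LP over ML. A mainly mitochondrial list of acyl-CoA and ketone metabolism had 22 tested genes. It also holds the peroxisomal Hsdl2, so its counts are not read as those of mitochondrial genes alone. For basal over LP, 5 of the 22 were lower and 0 higher. For basal over ML, 7 were lower and 0 higher, and for LP over ML 2 were higher and 1 lower. Acot1, an acyl-CoA thioesterase with close copies in the genome, had a log2 fold change of -1.33 against LP (SE 0.24, edgeR adjusted p = 0.00124) and -2.04 against ML (SE 0.25, edgeR adjusted p = 2.10e-05). Hsdl2, a peroxisomal dehydrogenase-like protein, was lower in basal cells than in LP (log2 -1.40, SE 0.28), and Dbi, an acyl-CoA binding protein, higher in LP than in ML (log2 1.78, SE 0.48).

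Of 16 tested peroxisomal genes, 3 were lower in basal cells than in LP, 5 lower than in ML and 3 lower in LP than in ML, and 0 were higher. Phyh, which starts the alpha-oxidation of branched chains, had a mean of 289 CPM in WT ML, 22.5 CPM in LP and 17.5 CPM in basal cells (log2 -3.68 for LP over ML, SE 0.54, edgeR adjusted p = 3.53e-04, and -4.02 for basal over ML). Decr2, a peroxisomal reductase, and Abcd3, a peroxisomal membrane transporter, were lower in basal cells than in LP (log2 -1.78 and -0.97), Decr2 also than in ML (log2 -2.20), and Crot, a carnitine transferase, was lower in LP than in ML (log2 -1.75). Of 13 tested regulators, 1 was higher and 1 lower in basal cells than in LP, 3 were higher than in ML, and 1 was higher in LP than in ML. Ncoa1, a coactivator of nuclear receptors, was higher in basal cells (log2 1.10 over LP and 1.82 over ML), with 0.72 for LP over ML not passing (edgeR adjusted p = 0.0714), and so was Pprc1, a relative of Ppargc1a, over ML (log2 1.39). Prkaa2, a catalytic subunit of AMPK, was highest in LP, with a log2 fold change of 2.84 over ML (SE 0.45, edgeR adjusted p = 6.51e-04) and -1.64 for basal over LP. Of 21 tested genes of uptake, activation and storage, 3 were lower in basal cells than in LP, 5 were higher and 2 lower than in ML, and 8 were higher and 0 lower in LP than in ML. Scd1, a desaturase, had a log2 fold change of -2.91 between basal cells and LP (SE 0.39). Acsl1, an acyl-CoA synthetase, was higher in LP than in ML (log2 3.07, SE 0.37) and lower in basal cells than in LP (log2 -2.38). The lipase Mgll was higher than in ML both in LP (log2 3.25, SE 0.39) and in basal cells (log2 2.52), and the lipoprotein receptor Vldlr was higher in basal cells than in ML (log2 3.60, SE 0.45).

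KO was then compared with WT within each population, to see what the loss of Id4 changes. None of the 33 genes passed in basal cells, LP or ML. The values of most were lower in KO, by small amounts: the log2 fold change was below 0 for 20 of 27 tested genes in basal cells (median -0.22), 25 of 31 in LP (median -0.27) and 25 of 30 in ML (median -0.33). Over all genes tested 49.4%, 49.8% and 49.2% were below 0, with medians of 0.01, 0.00 and 0.01. These genes share libraries and vary together, and the set was chosen with earlier results of these data known. The counts here and below are thus descriptions and not tests. In basal cells the count was 17 of 29 without WT basal replicate 2 and 18 of 30 without KO basal replicate 3, each with a median of -0.09. Without both it was 13 of 30 with a median of 0.11, and with sample weights in limma voom it was 14 of 27 with a median of -0.09. In LP it was 22 of 31 with a median of -0.13 without WT LP replicate 2, and 25 of 31 with a median of -0.41 without WT LP replicate 4.

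The 3 knockout comparisons have separate libraries, but titles share replicate numbers across populations. Same-numbered WT libraries of different populations deviated together (correlations 0.0622 to 0.322), so the 3 are not taken as independent repeats. EdgeR passed 0% of all genes in basal cells, 0% in LP and 0.00851% (1 gene, none of the set) in ML, and with the replicate number as a block that count in ML was 0. At an unadjusted p under 0.05 there were 2 of 27 tested genes of the set in basal cells, beside 3.39% of all, 4 of 31 in LP, beside 3.75%, and 8 of 30 in ML, beside 3.87%. With the replicate number as a block the ML count was 13 of 30, beside 6.99% of all genes in that fit. DESeq2 and limma voom also passed 0 of the set in each population. At an unadjusted p under 0.05 DESeq2 had 2 genes of the set in basal cells, 3 in LP and 9 in ML, beside 5.30%, 4.85% and 4.85% of all genes with a p. Limma voom had 0, 8 and 10, beside 5.22%, 5.65% and 5.29%.

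**Figure D3:**
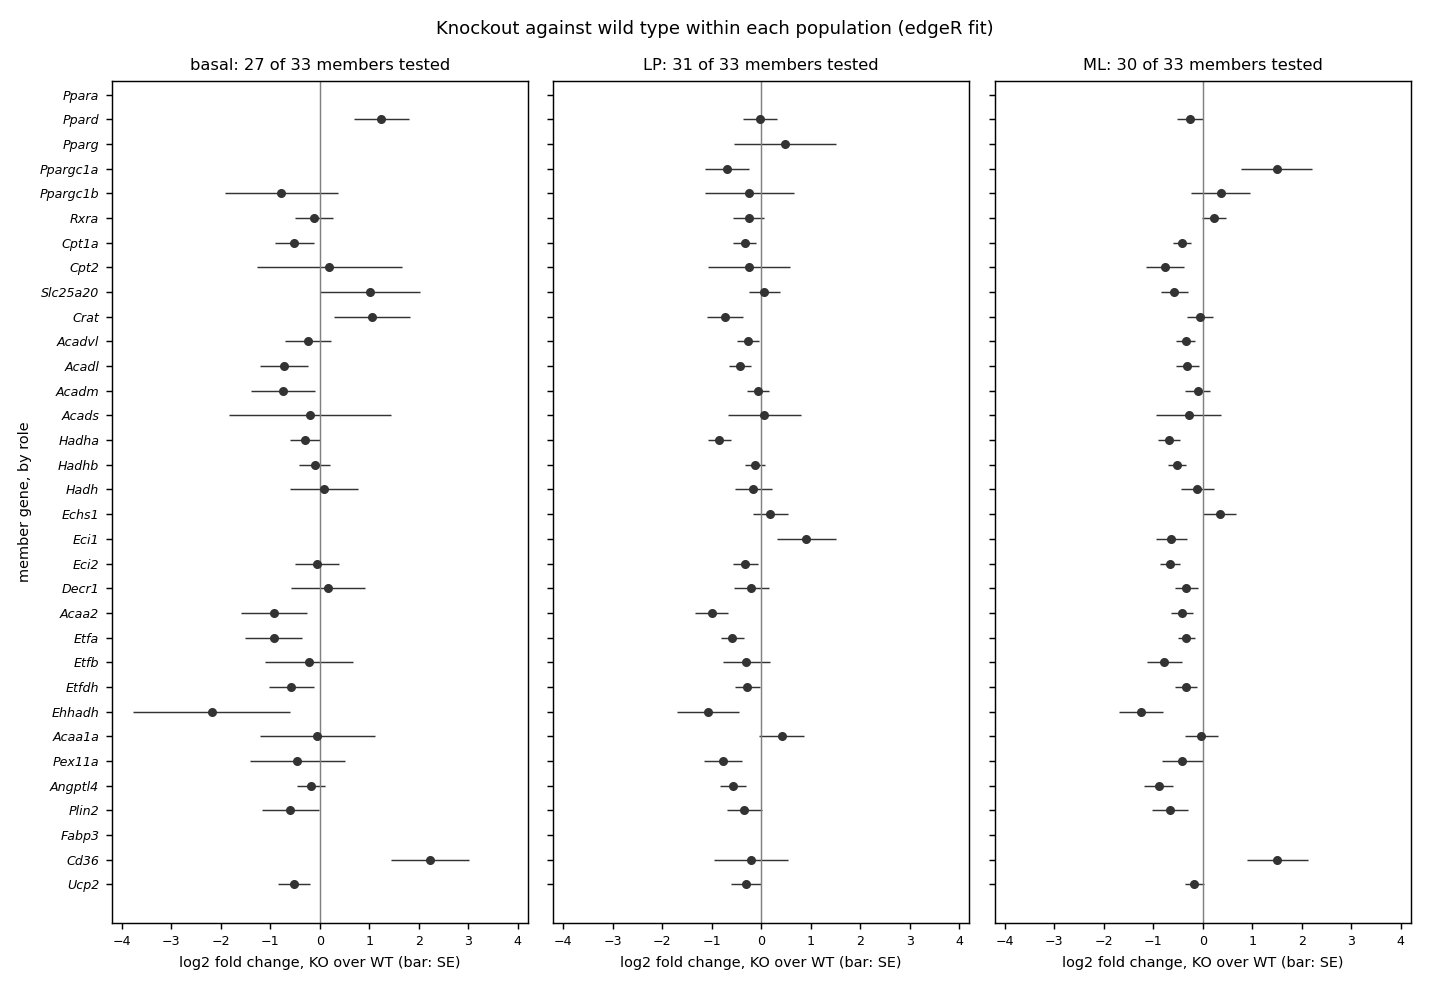
Fitted log2 fold change of KO over WT (points) with its SE (bars) for each tested gene, in basal cells, LP and ML, with genes in the same order by role and the line at 0. Most points lie left of 0 in LP and ML with small distances, and Cd36 lies to the right in basal cells and ML.

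Hadha had the smallest unadjusted p of the set in LP. WT LP replicates 1 to 4 held 140.2, 223, 122 and 142 CPM, and KO LP replicates 92.9, 103, 60.0 and 93.3 CPM. All 4 KO libraries lay below all 4 WT libraries, as did 1.2% of all genes tested in LP, while all KO libraries lay above for 1.5% of all and 0 of the set. The log2 fold change was -0.84 (SE 0.24, unadjusted p = 0.00385, edgeR adjusted p = 0.999). Replicates 1 and 2 alone gave -0.87, and replicates 3 and 4 alone gave -0.81. Hadhb, its partner gene, stood at 109, 149, 117 and 103 CPM in WT LP and 96.1, 97.4, 125 and 117 CPM in KO LP, with overlap.

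Acaa2, the last thiolase of the spiral, stood at 46.3, 65.5, 34.9 and 69.6 CPM in WT LP and at 36.3, 37.0, 17.0 and 17.7 CPM in KO LP. The groups overlapped through WT replicate 3, and the log2 fold change was -0.998 (SE 0.33, edgeR adjusted p = 0.999). Replicates 1 and 2 alone gave -0.59, against -1.61 from replicates 3 and 4. Etfa stood at 86.1, 97.4, 59.0 and 89.4 CPM in KO LP, with only WT replicate 4 (87.6 CPM) in that range (log2 -0.58, SE 0.23). Angptl4, the other gene of the set with an unadjusted p under 0.05 in LP, had a log2 fold change of -0.57 (SE 0.26).

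Eci1 had higher values in KO LP, at 25.2, 7.81, 3.54 and 7.89 CPM in KO and 7.17, 7.77, 6.49 and 2.21 CPM in WT. KO LP replicate 1 carried the difference (log2 0.91, SE 0.60). Acaa1a had a log2 fold change of 0.42 (SE 0.45) and Echs1 of 0.18 (SE 0.36), and both overlapped. Markers of other cells moved with genotype in LP. The summed ML markers stood at 942 to 1900 CPM in KO LP and 563 to 884 CPM in WT LP, with 9 of 9 tested markers fitted above 0. Summed fibroblast markers stood at 179 to 706 CPM in KO LP and 135 to 489 CPM in WT LP, with 9 of 9 above 0 (median log2 0.67). Summed basal markers stood at 19.4 to 129 CPM in KO LP and 101 to 157 CPM in WT LP, with 5 of 6 tested markers below 0 (median log2 -1.25). None of these markers passed edgeR, and their part in the values of LP was not tested.

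In ML all 4 KO libraries lay below all 4 WT libraries for Hadha, Hadhb, Eci2, Cpt1a and Cpt2, 5 of 30 tested genes, beside 1.42% of all genes tested, and above for 0, beside 1.24%. Eci2 stood at 67.4, 70.8, 71.3 and 76.2 CPM in WT ML and at 31.4, 49.1, 45.3 and 54.3 CPM in KO ML (log2 -0.65, SE 0.20, unadjusted p = 0.00707, edgeR adjusted p = 0.998). Hadha stood at 106, 137, 103 and 109 CPM in WT ML and at 89.4, 84.4, 45.7 and 62.6 CPM in KO ML (log2 -0.68, SE 0.23). Its KO values were lower in replicates 3 and 4 than in replicates 1 and 2, and the log2 fold change was -0.47 within the first pair and -0.94 within the second.

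Hadhb stood at 134, 126, 173 and 152 CPM in WT ML and at 96.0, 84.5, 112 and 111 CPM in KO ML. Its log2 fold change was -0.52 (SE 0.18), and -0.51 within either pair of replicates. Cpt1a, with 134, 90.4, 132 and 119 CPM in KO ML, lay below the WT ML range of 144 to 172 CPM (log2 -0.41, SE 0.18), and still above every KO basal and KO LP library. Cpt2 stood at 8.99, 9.54, 3.18 and 8.78 CPM in KO ML and 9.84 to 19.1 CPM in WT ML (log2 -0.76, SE 0.39). The separation of Cpt2 was narrow, since the highest KO and lowest WT libraries were 9.54 and 9.84 CPM.

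Angptl4 in ML stood at 43.2, 23.0, 25.3 and 30.3 CPM in KO and 88.1, 39.4, 58.4 and 41.1 CPM in WT, with overlap at KO replicate 1 (log2 -0.89, SE 0.30, edgeR adjusted p = 0.998). Ehhadh (log2 -1.25, SE 0.45) and Etfb (log2 -0.78, SE 0.36) were the remaining genes of the set with lower values at an unadjusted p under 0.05, and both overlapped. Ppargc1a stood at 2.88, 1.499, 4.12 and 2.87 CPM in KO ML and 0.127 to 2.06 CPM in WT ML (log2 1.49, SE 0.72), levels of a few counts. Echs1 stood at 14.9 ± 4.76 CPM in KO ML and 11.8 ± 4.24 CPM in WT ML (log2 0.34, SE 0.34).

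**Figure D4:**
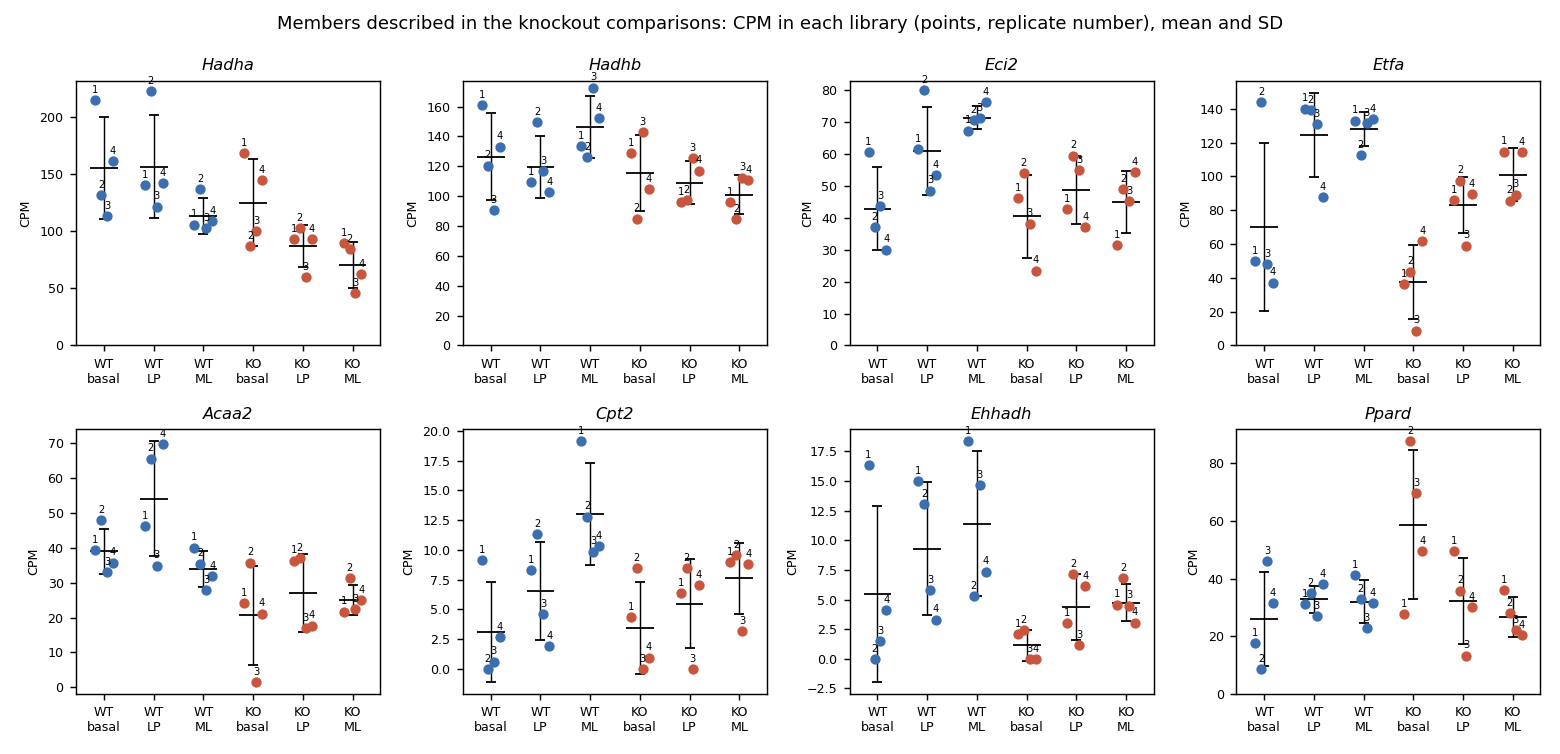
CPM of 8 genes in every library (points with their replicate number), with the group mean (line) and SD (bars), for WT in blue and KO in red. Hadha in KO LP and KO ML lies below WT in all libraries, while Ppard in KO basal cells reaches above WT with overlap.

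In basal cells no gene of the set was separated by genotype, beside 1.07% of all genes with KO above and 1.59% with KO below WT. Ppard stood at 27.6, 87.8, 69.7 and 49.5 CPM in KO basal cells and at 17.5, 8.62, 46.0 and 31.4 CPM in WT basal cells. KO replicate 1 lay within the WT range and the other 3 above it (log2 1.24, SE 0.56, unadjusted p = 0.0408, edgeR adjusted p = 0.998). Crat stood at 15.6, 10.7, 34.7 and 16.0 CPM in KO and 8.68, 11.4, 3.01 and 14.7 CPM in WT basal cells (log2 1.06, SE 0.77). Its highest value belonged to KO basal replicate 3, the library with endothelial markers.

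Etfa, Ucp2 and Acadl had the smallest p among the genes with lower values in KO basal cells. Etfa had a log2 fold change of -0.93 (SE 0.58), which was 0.10 without WT basal replicate 2 and KO basal replicate 3, the libraries at 144 and 8.75 CPM. Ucp2 stood at 595, 319, 361 and 522 CPM in KO, within or below the WT range (log2 -0.51, SE 0.32). Acadl stood at 37.9, 21.6, 13.0 and 24.4 CPM in KO and 32.98, 34.5, 44.2 and 49.4 CPM in WT basal cells, overlapping through KO replicate 1 (log2 -0.72, SE 0.49). None passed, each with an edgeR adjusted p of 0.998.

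Cd36 had the smallest p of the set in basal cells and the largest value above 0 in ML. It stood at 12.1, 9.77, 64.5 and 26.8 CPM in KO basal cells and 11.4, 4.70, 4.82 and 4.13 CPM in WT basal cells (log2 2.23, SE 0.79, unadjusted p = 0.0131, edgeR adjusted p = 0.998). In ML it stood at 1.70, 22.5, 27.2 and 25.1 CPM in KO and 8.02, 3.58, 6.03 and 9.42 CPM in WT (log2 1.51, SE 0.62). KO ML replicate 1 was the lowest of all ML libraries and the other 3 KO libraries were above every WT library. The sums of endothelial and adipocyte markers were low or high in the same KO ML libraries as Cd36. In basal cells they did not follow Cd36 in every library. The endothelial sum was 208 CPM in KO basal replicate 3 and 42.7 CPM in KO basal replicate 4, where Cd36 stood at 64.5 and 26.8 CPM. It was 65.6 CPM in WT basal replicate 3, where Cd36 stood at 4.82 CPM. In KO ML replicates 1 to 4 the endothelial sum was 7.63, 41.3, 46.3 and 32.99 CPM, against 13.2 to 21.1 CPM in WT ML. The adipocyte sum was 1.19, 11.04, 48.0 and 30.7 CPM in KO ML replicates 1 to 4, against 6.37 to 10.4 CPM in WT ML. Of the 8 adipocyte markers Lep and Adrb3 were at 0 in all KO ML libraries, and most of the sum was Fabp4, at 1.19, 10.8, 25.8 and 29.4 CPM. Of the 10 endothelial markers none was at 0 in all KO ML libraries. Their part in the Cd36 values was not tested.

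**Figure D5:**
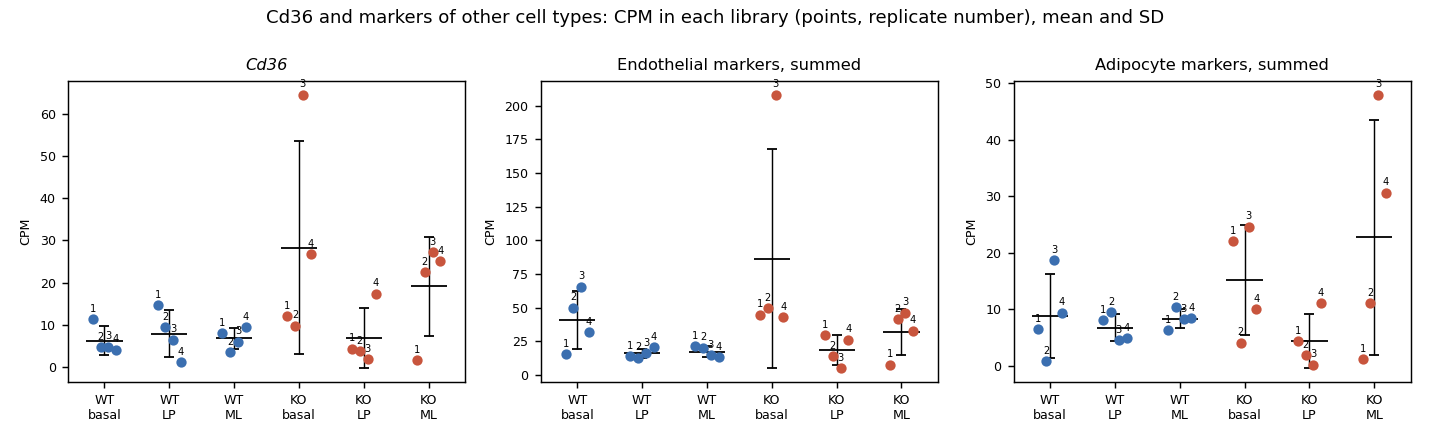
CPM of Cd36 (left), of 10 endothelial markers summed (middle) and of 8 adipocyte markers summed (right) in every library (points with their replicate number), with the group mean (line) and SD (bars), for WT in blue and KO in red. KO basal replicate 3 is highest for Cd36 and the endothelial sum, and KO ML replicate 1 is low in all 3 panels.

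Within pairs of replicates, each with 2 libraries per genotype, the values of the set did not keep 1 size. Replicates 1 and 2 stood apart from 3 and 4 in several of the values above, and the labels give no batch. In LP 27 of 32 tested genes were below 0 within replicates 1 and 2 (median -0.41) and 17 of 28 within replicates 3 and 4 (median -0.15). In ML it was 22 of 30 (median -0.27) and 24 of 29 (median -0.36). In basal cells it was 19 of 30 (median -0.32) and 15 of 24 (median -0.06).

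Whether the knockout effect differed between populations was tested for each gene over all 24 libraries. None of 31 tested genes passed with edgeR, beside 0% of all 14082 genes in each of the 3 tests. DESeq2 and limma voom passed 0 of the set as well. At an unadjusted p under 0.05 there were 3 genes of the set for LP minus basal (Eci1, Crat and Cd36), 1 for ML minus basal (Ppard) and 0 for ML minus LP, beside 6.96%, 6.89% and 1.32% of all genes. Eci1 had a difference of 3.68 in log2 fold change between LP and basal cells (SE 1.19, edgeR adjusted p = 0.485). KO basal libraries held 1.61, 1.69, 0 and 0 CPM of Eci1 and WT basal libraries 7.52, 11.4, 0.301 and 5.29 CPM. Crat had a difference of -1.74 (SE 0.66) between LP and basal cells, and Ppard one of -1.45 (SE 0.61) between ML and basal cells. The smallest p of ML minus LP belonged to Ppargc1a (2.16, SE 1.25) and Cd36 (1.70, SE 1.09).

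The other pathway lists held 0 genes that passed edgeR between KO and WT, of 65 tested in basal cells, 71 in LP and 68 in ML. Those with an unadjusted p under 0.05 numbered 1, 9 and 10, beside 3.39%, 3.75% and 3.87% of all genes. With the replicate number as a block the LP count was 17 of 71, beside 7.21% of all genes in that fit. DESeq2 passed 0, 1 (Slc27a1 in LP) and 2 (in ML, among them Pdk4), and limma voom passed 0 in each. Slc27a1, Pdk4, Acot1 and Hsdl2 had been noticed in earlier work on these data and are not independent of it. Slc27a1, a fatty acid transport protein, stood at 126, 132, 58.2 and 118 CPM in WT LP and at 44.2, 42.6, 48.9 and 41.4 CPM in KO LP, without overlap (log2 -1.29, SE 0.26, edgeR adjusted p = 0.999). Pdk4, a kinase that holds back pyruvate oxidation and a PPAR target, stood at 5.43, 13.8, 22.5 and 14.0 CPM in KO ML and 56.9, 20.8, 84.6 and 53.1 CPM in WT ML, with overlap at replicates 2 and 3.

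Genes at an unadjusted p under 0.05 were counted by list. In LP they were 3 of 22 genes of the mainly mitochondrial list (all lower) and 2 of 15 peroxisomal genes (both higher). They were also 0 of 13 regulators and 4 of 21 genes of uptake and storage (all lower). In ML they were, in the same order, 5 of 20, 2 of 16, 0 of 12 and 3 of 20, all lower. In basal cells it was 1 of 19 genes of the mainly mitochondrial list, lower. Acot1 had a log2 fold change of -1.05 in LP (SE 0.26) and -0.85 in ML (SE 0.20), each with all KO libraries below WT. Pdk4 in LP had -1.06 (SE 0.35) with overlap. Hsdl2 had -0.68 in LP (SE 0.22) and -0.70 in ML (SE 0.19), each with all KO libraries below WT. In basal cells Hsdl2 had -0.67 (SE 0.41) with overlap. The peroxisomal Phyh had 0.87 in LP (SE 0.31) and -0.92 in ML (SE 0.28), and Crot had 1.28 in LP (SE 0.48). In ML Acsl3, an acyl-CoA synthetase, had -0.45 (SE 0.18). In basal cells Scp2, a peroxisomal thiolase and sterol carrier, had -1.39 (SE 0.68), Decr2 1.74 (SE 1.04), Pdk4 -0.58 (SE 0.34) and the lipid droplet protein Plin3 1.77 (SE 1.08). Among the regulators Nrf1 had 0.72 in basal cells (SE 0.48) and -0.60 in LP (SE 0.32), Prkaa2 -0.30 in LP (SE 0.23), and Nrip1 -0.35 in basal cells (SE 0.29) and 0.32 in ML (SE 0.34). Of the differences of the knockout effect between populations, 0 genes of these lists passed edgeR.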

How the data were processed

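RNA of 0.5 to 2 ng per sorted sample was amplified to cDNA with a kit for small inputs and sequenced, per the labels' protocols. The authors deposited a table of expected counts with the length of each gene. Cutadapt, STAR, RSEM and the mm10 build are named in the submitters' processing notes, without versions. Expected counts were rounded. Levels are counts per 1000000 (CPM) scaled by TMM over all 24 libraries. Tests used edgeR 4.0.16 in R 4.3.3 (quasi-likelihood, filterByExpr, Benjamini-Hochberg adjustment over all genes tested, threshold 0.05), on 12 WT libraries for population contrasts, 8 for KO against WT in a population and 24 for differences of the knockout effect. Alternatives used DESeq2 1.42.0, limma 3.58.1, other scaling and filters, a replicate block and left-out libraries. P-values measure the spread between replicates of pooled mice. Mitochondrial rRNA genes took 13.5% to 35.1% of counts. Counts in the limit of 3 cover counting error only. The edgeR script was run on simulated counts with the same spread for every gene and no replicate effects. That run does not give its power in these libraries.

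The members and lists were chosen with earlier results of these data known. Genes given per library were the PPAR genes, up to 4 per direction that passed in WT (by size of change), and in KO 3 per direction by smallest p. Of the other lists the 2 genes with the smallest p were named, except for some that are not reported here, and further genes were named after their values were seen. Same-numbered KO and WT libraries deviated together in LP (correlations 0.140 to 0.407) and ML (0.139 to 0.353), from titles that share replicate numbers. KO LP replicate 4 was closer to a WT LP library of another number (0.177) than to its own (0.140). One KO ML label repeats a replicate number that its title does not, and titles were used.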

Additional observations from a re-analysis of the deposited data

Results flagged for a closer look

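Of 119 groups of 4 values, 12 had 1 library that stood apart from the others by the Dixon gap test. Chance flags about 1 in 20 groups when the 4 values are normally distributed. The test was run on CPM without a log, and some groups were near the detection limit. A group otherwise at 0 is flagged whatever its remaining value, so the number flagged is not read as an excess. Etfa stood at 144 CPM and Plin2 at 101 CPM in WT basal replicate 2, against 37.2 to 50.1 and 22.6 to 33.9 CPM in the other WT basal libraries. Cd36 stood at 11.4 CPM in WT basal replicate 1, against 4.13 to 4.82 CPM. Echs1 stood at 6.61 CPM in WT basal replicate 4, against 0.392 to 1.45 CPM, and at 22.04 CPM in KO ML replicate 1, against 12.0 to 12.9 CPM. In KO LP, Plin2 stood at 463 CPM in replicate 3 (others 147 to 182), Cd36 at 17.4 CPM in replicate 4 (others 1.89 to 4.33) and Crat at 20.5 CPM in replicate 2 (others 9.22 to 10.4). Etfa stood at 113 CPM in WT ML replicate 2, below 132 to 134 CPM in the others. A further 3 values lay beside groups otherwise at 0: Ppara at 0.170 CPM in KO LP replicate 2, Pparg at 0.992 CPM in WT basal replicate 4 and Pparg at 0.321 CPM in KO basal replicate 1.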

How the results depend on the processing

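No gene of the set passed between KO and WT, or in a difference of that effect, under any alternative run. The WT calls of Plin2, Angptl4, Acadvl and Cpt1a, and that of Ucp2 between LP and ML, passed under every alternative run. Genes of the set higher in basal cells than in LP numbered 2 by DESeq2, and lower ones 5 by DESeq2, 6 by limma voom, 4 with the replicate block and 2 to 5 with a library left out. Against ML 1 to 3 were higher and 2 to 7 lower with a library left out, with 8 lower by limma voom. In LP over ML 4 were higher by DESeq2, 6 by limma voom and 2 to 4 with a library left out, and 3 were lower by limma voom. Over all genes, LP against ML gave 1470 calls, 3085 by limma voom and 1036 to 2180 with a library left out. Basal cells against LP gave 2018 calls over all genes, and 1557 to 2808 under the alternatives. Basal cells against ML gave 3140, and 2498 to 4036 under the alternatives. KO basal calls over all genes numbered 30 with no filter, 7 by DESeq2, 1 by limma voom and 13 with all 24 libraries. KO LP calls numbered 8 by DESeq2, 1 within replicates 3 and 4 and 0 to 1 with a library left out. KO ML calls numbered 0 with RLE scaling, 8 by DESeq2, 0 with the replicate block, 0 within replicates 1 and 2, 4 within replicates 3 and 4 and 0 to 0 with a library left out. For LP minus basal they numbered 2 with no filter, 29 by DESeq2 and 0 to 13 with a library left out, for ML minus basal 30 by DESeq2, 1 by limma voom and 0 to 3, and for ML minus LP 1 by DESeq2. Etfa in KO basal cells turned to 0.10 without WT basal replicate 2 and KO basal replicate 3. Etfb in basal cells against ML did not pass by limma voom (log2 -1.45, adjusted p = 0.0690). The cause of these changes was not tested. In WT contrasts and KO basal cells same-numbered libraries deviated together at over 0.1 in 3 of 4 pairs each (lowest 0.0622 to 0.0970 in WT and 0.0655 in KO basal cells, highest 0.322), every one best with its own number. This is a hint from the data, and the pairs were not taken as paired. With the replicate block the set's calls against ML were 3 higher and 6 lower. In KO LP and ML the block changed no call of a gene of the set. Ppara and Fabp3 were too low for any of the main tests, and Pparg for all but KO LP and the differences of the knockout effect.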
